A study of Mus musculus with 8 samples.

Results

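Granins are acidic proteins that fill the dense-core granules of hormone-secreting cells, where they bind calcium, condense with prohormones and are themselves cut into peptides. The same granules hold the endoproteases that cut prohormones after basic residues and the carboxypeptidase that trims the residues left behind. In beta cells this pathway turns proinsulin into insulin and C-peptide, and in alpha cells it turns proglucagon into glucagon. The 10 genes described here were taken by symbol: the granins and granin-like genes Chga, Chgb, Scg2, Scg3, Scg5, Vgf and Pcsk1n, and the enzyme genes Pcsk1, Pcsk2 and Cpe. All 10 were found among the 35596 genes of the deposited table, and all 10 had a mean of at least 1 TPM (a level per transcript length, scaled so that every library has the same total), so that none was lost to the filter on low values.

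RNA was sequenced from hand-picked, collagenase-freed pancreatic islets of male mice of the inbred strain C57BL/6J. The 4 weight-cycled libraries came from mice given 9 weeks of a 60% fat diet, 9 weeks of a 10% fat diet and 9 more weeks of the first diet, and the 4 obese libraries from mice given the 10% diet for 9 weeks and then the 60% diet for 18 weeks. Both groups thus ended on the 60% diet, after 9 unbroken weeks on it in the weight-cycled and 18 in the obese mice, and the sources used here give neither the age of the mice nor how many animals stand behind a library. P-values therefore speak only of how far these libraries spread, and that spread may be technical. Fold changes are differences in log2(TPM + 1), weight-cycled minus obese, tested with limma, a linear model with variances shared across genes, on the 8127 genes with a mean of at least 1 TPM. Adjusted p-values are Benjamini-Hochberg values over all of those genes.

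Insulin transcripts marked the libraries as islet RNA: Ins1 and Ins2 together took 77.6% ± 1.51 of TPM in weight-cycled and 77.5% ± 0.671 in obese libraries (SD, n = 4 each). Limma called 98 genes higher and 1946 lower in weight-cycled islets. The median fold change of all genes tested was -0.26. Scaling by the median of ratios, which divides all genes of a library by the same factor, moved this median to -0.0090. The deviations of genes from their means ran with transcript length, in a direction that differed between libraries: Spearman's rho across genes was 0.345 in weight-cycled replicate 1, -0.400 to -0.283 in the other weight-cycled libraries and 0.184 to 0.375 in the obese libraries. On the first principal component weight-cycled replicate 1 scored -7.98, inside the obese range of -23.3 to -5.03, and the other weight-cycled libraries scored 13.8 to 30.6. Depth cannot be recovered from TPM, so no counting interval is given.

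Of the 10 genes, Scg5 rose and Pcsk1n fell in weight-cycled islets, and the other 8 did not pass the test. The background in the same fit was 1.21% of genes called higher, 23.9% called lower and 25.2% in either direction, so 1 lower call among 10, or 2 calls in all, is not more than the table as a whole gives. The median fold change of the 10 was -0.091, against -0.26 over all genes tested, and 8 of the 10 lay above that general median. The groups did not overlap for Scg5 alone, with a background of 22.4% of genes that did not overlap, made up of 1.3% with weight-cycled above and 21.1% with it below. Together the 10 genes took 0.643% ± 0.129 of TPM in weight-cycled and 0.692% ± 0.113 in obese islets (SD, n = 4 each), and outside Ins1 and Ins2 2.88% ± 0.637 of TPM in weight-cycled and 3.06% ± 0.445 in obese islets.

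Stretches of 4 promoters are shown for the cyclic-AMP response element, a binding site known for the CREB family of transcription factors. They are those of Pcsk1 and Chga, which hold all or part of it, and of Scg5 and Pcsk1n, called on TPM as deposited. After median-of-ratios scaling Pcsk1 was called higher and Pcsk1n was not called, so the stretches do not set changed genes against unchanged ones. The sequences are from RefSeq on build GRCm38.p6, written 5′ to 3′ on the gene's strand from 100 to 31 bases before the transcription start that RefSeq gives, with TGACGTCA, and TGACG or its reverse complement CGTCA, in capitals.
Pcsk1: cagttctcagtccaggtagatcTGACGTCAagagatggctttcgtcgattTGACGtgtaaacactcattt
Chga: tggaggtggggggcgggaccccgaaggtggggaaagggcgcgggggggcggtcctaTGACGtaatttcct
Scg5: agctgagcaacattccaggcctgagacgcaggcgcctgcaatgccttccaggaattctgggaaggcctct
Pcsk1n: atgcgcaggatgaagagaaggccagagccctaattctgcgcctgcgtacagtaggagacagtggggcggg
The stretches lie at chr13:75089757-75089826 (plus strand) for Pcsk1, chr12:102554841-102554910 (plus) for Chga, chr2:113829122-113829191 (minus) for Scg5 and chrX:7919722-7919791 (plus) for Pcsk1n. RefSeq promoters were matched for 8 of the 10 genes, that is all except Vgf and Cpe. The full element TGACGTCA, which is its own reverse complement, was found in 3 of these 8 (Pcsk1, Chgb and Scg2, beginning 78, 72 and 68 bases before RefSeq's start) and in 1.79% of 32851 promoters of the same length. The shorter TGACG or CGTCA, which the full element contains, was found in 7 of the 8, Pcsk1n being the exception, and in 20.8% of all promoters; in Scg5 it lay outside the stretch shown. GENCODE, whose gene coordinates are given below, starts Chgb and Scg2 further upstream: of the 70 bases of the same stretch, 70 lie inside its Chgb gene and 64 inside its Scg2 gene, so those elements are before the start only by RefSeq, and these stretches are not shown. These are matches of letters and not measured binding.

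**Figure D1:**
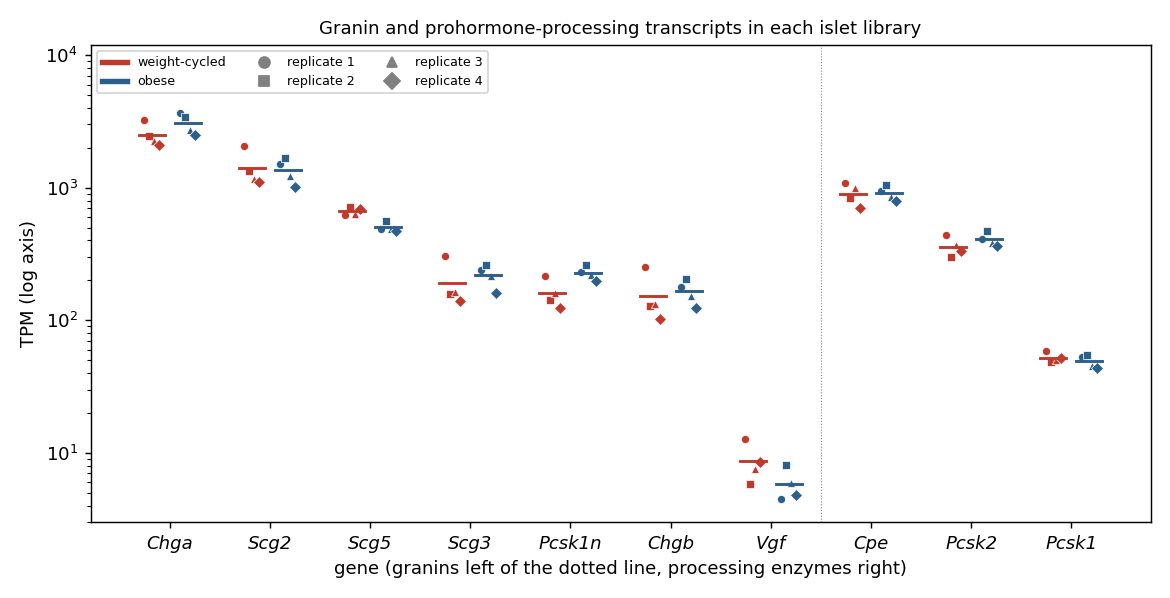
TPM on a log axis of the 7 granin and granin-like genes and the 3 enzyme genes in each library (points, with a shape for each replicate number), with the mean of each group as a bar, weight-cycled in red and obese in blue. Chga was the most abundant, with means of 2519 TPM in weight-cycled and 3076 TPM in obese islets, Vgf the least, with 8.63 TPM in weight-cycled and 5.84 TPM in obese islets, and Scg5 is the gene whose 4 weight-cycled points all lie above its 4 obese points.

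The order of abundance differed little between libraries. By mean TPM over the 8 libraries the order was Chga (2798), Scg2 (1387), Cpe (906), Scg5 (584), Pcsk2 (384), Scg3 (205), Pcsk1n (194), Chgb (159), Pcsk1 (50.7) and Vgf (7.24). Each neighbouring pair stood in this order in all 8 libraries, except Scg3 above Pcsk1n in 6 and Pcsk1n above Chgb in 7, so Pcsk1n cannot be ranked against Scg3 or Chgb. Chga was the 10th and Vgf the 2681st most abundant of the 8127 genes tested. The coefficient of variation between libraries of a group ran from 7.01% (Scg5) to 43.0% (Chgb) in weight-cycled and from 7.88% (Scg5) to 28.3% (Vgf) in obese islets.

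Scg5 (ENSMUSG00000023236.7, chr2:113776362-113829121, minus strand, build mm10) encodes 7B2, a granin-like chaperone that keeps the Pcsk2 enzyme from aggregating and is needed for its activation. It had 623, 721, 632 and 687 TPM in weight-cycled replicates 1 to 4, against 487, 560.01, 486 and 473 TPM in obese replicates 1 to 4. Every weight-cycled library was above every obese one. Scg5 averaged 666 ± 46.7 TPM in weight-cycled and 502 ± 39.5 TPM in obese islets (SD, n = 4 each), and the log2 fold change was 0.41 (SE 0.0959, limma adjusted p = 0.0322). The change was 0.74 (SE 0.157, limma adjusted p = 0.0478) after median-of-ratios scaling, and over all 27 alternatives it lay between 0.20 and 0.85, with adjusted p from 0.00304 to 0.154. The call was lost without obese replicate 1, 2 or 3 (limma adjusted p = 0.109, 0.0839 and 0.0664) and without weight-cycled replicate 2, 3 or 4 (0.0967, 0.0645 and 0.0814).

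Pcsk1n (ENSMUSG00000039278.10, chrX:7919822-7924410, plus strand) encodes proSAAS, a granin-like precursor known as an inhibitor of the Pcsk1 enzyme. It had 216, 142, 160.5 and 125 TPM in weight-cycled replicates 1 to 4, against 232, 260.3, 221 and 198 TPM in obese replicates 1 to 4. Weight-cycled replicates 2, 3 and 4 were below every obese library, and replicate 1 lay between obese replicates 4 and 3, so the groups overlapped. Pcsk1n averaged 161 ± 39.6 TPM in weight-cycled and 228 ± 25.9 TPM in obese islets, and the log2 fold change was -0.52 (SE 0.153, limma adjusted p = 0.0392). Relative to the median of all genes tested it lay at -0.27, and after median-of-ratios scaling at -0.19 (SE 0.122, limma adjusted p = 0.292), so the call did not survive that scaling. Over the 27 alternatives it stayed below 0, between -0.67 and -0.11, with adjusted p from 0.000996 (without weight-cycled replicate 1) to 0.567. The call was also lost without obese replicate 1, 2 or 3 (limma adjusted p = 0.110, 0.109 and 0.0722) and without weight-cycled replicate 2, 3 or 4 (0.110, 0.0778 and 0.0938).

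The chromogranin genes Chga and Chgb and the secretogranin genes Scg2 and Scg3 did not pass the test with all 8 libraries. Chga (ENSMUSG00000021194.6, chr12:102554969-102565028), the founding granin and a precursor of several peptides, had 3254, 2476, 2238 and 2109 TPM in weight-cycled replicates 1 to 4, against 3683, 3422, 2721 and 2478 TPM in obese replicates 1 to 4. Weight-cycled replicates 2, 3 and 4 were below every obese library, and replicate 1 was among them. Its fold change was -0.29 (SE 0.167, limma adjusted p = 0.175). Chgb (ENSMUSG00000027350.8, chr2:132781278-132795079), its closest counterpart in granules, had 251, 129, 132 and 103 TPM in weight-cycled replicates 1 to 4, against 179.6, 204, 153 and 124 TPM in obese replicates 1 to 4. Weight-cycled replicate 1 was the highest of the 8 libraries and replicate 4 the lowest. The fold change was -0.16 (SE 0.237, limma adjusted p = 0.585).

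Scg2 (ENSMUSG00000050711.7, chr1:79434669-79440120), the precursor of secretoneurin, had 2048, 1345, 1159.8 and 1102 TPM in weight-cycled replicates 1 to 4, against 1517, 1689, 1231 and 1007 TPM in obese replicates 1 to 4. Replicate 1 was again the highest of all, and the others lay within the obese range. The fold change was 0.037 (SE 0.206, limma adjusted p = 0.891). Scg3 (ENSMUSG00000032181.7, chr9:75643189-75684056), which binds chromogranin A and the granule membrane, had 307, 159, 163 and 140.3 TPM in weight-cycled replicates 1 to 4, against 238, 261, 214 and 161 TPM in obese replicates 1 to 4. It changed by -0.23 (SE 0.223, limma adjusted p = 0.400). For Scg3, too, weight-cycled replicate 1 lay above all obese libraries, while replicates 2 and 4 lay below them. Without that library limma called Chga (-0.42, adjusted p = 0.0212), Chgb (-0.43, adjusted p = 0.0272), Scg3 (-0.48, adjusted p = 0.0111) and Pcsk2 (-0.29, adjusted p = 0.0418) lower, beside Pcsk1n. In that fit 270 of the 8064 genes tested were called higher and 4390 lower. So 5 lower calls among the 10 are not more than the table as a whole gives. With the same library left out after median-of-ratios scaling, Chga was at -0.0091, Chgb at -0.017, Scg3 at -0.073 and Pcsk2 at 0.12. There 3 of the 10 and 1620 of all genes were called higher, and 0 of the 10 and 1433 of all genes lower.

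Vgf (ENSMUSG00000037428.14, chr5:137026392-137033351), the precursor of several neuroendocrine peptides, was the least abundant of the 10. It had 12.6, 5.84, 7.51 and 8.55 TPM in weight-cycled replicates 1 to 4, against 4.51, 8.16, 5.92 and 4.79 TPM in obese replicates 1 to 4. Weight-cycled replicates 1 and 4 were above every obese library, and the groups overlapped. The fold change was 0.48 (SE 0.207, limma adjusted p = 0.0896), a value that the pseudocount of 1 reduces at this level. It was 0.76 after median-of-ratios scaling (limma adjusted p = 0.0520) and passed once the trend with transcript length was taken out of each library (0.76, limma adjusted p = 0.0464). Over the 27 alternatives it stayed above 0, between 0.29 and 0.89, with adjusted p from 0.0143 to 0.231.

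Pcsk1 (ENSMUSG00000021587.5, chr13:75089826-75134861) and Pcsk2 (ENSMUSG00000027419.9, chr2:143546156-143816285) encode the subtilisin-like endoproteases that cut proinsulin, and Pcsk2 is the main one for proglucagon in alpha cells. Pcsk1 had 58.9, 48.6, 49.9 and 52.1 TPM in weight-cycled replicates 1 to 4, against 52.5, 54.6, 45.2 and 43.5 TPM in obese replicates 1 to 4. The groups overlapped on TPM, with a fold change of 0.10 (SE 0.102, limma adjusted p = 0.437). After median-of-ratios scaling they did not overlap, at 54.9 to 61.8 in weight-cycled and 41.8 to 45.9 in obese libraries, and the fold change was 0.42 (SE 0.0847, limma adjusted p = 0.0424). That call held without weight-cycled replicate 1 (adjusted p = 0.00492) and in none of the other 7 scaled fits that left out a library, where the fold change was 0.40 to 0.45. Over the 27 alternatives Pcsk1 stayed above 0, at 0.042 to 0.45, with adjusted p up to 0.741.

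Pcsk2 had 440, 298, 368 and 335 TPM in weight-cycled replicates 1 to 4, against 412, 473, 384 and 364 TPM in obese replicates 1 to 4. Weight-cycled replicates 2 and 4 were below every obese library. The fold change was -0.19 (SE 0.128, limma adjusted p = 0.247), and it turned to 0.14 after median-of-ratios scaling and 0.19 after removal of the length trend, neither past the test. Cpe (ENSMUSG00000037852.8, chr8:64592542-64693054), the carboxypeptidase that removes the basic residues left by both endoproteases, had 1088, 835, 989.5 and 699.8 TPM in weight-cycled replicates 1 to 4, against 938, 1052.5, 845 and 798 TPM in obese replicates 1 to 4. Its groups overlapped, with the highest and the lowest library both weight-cycled. The fold change was -0.020 (SE 0.144, limma adjusted p = 0.915).

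**Figure D2:**
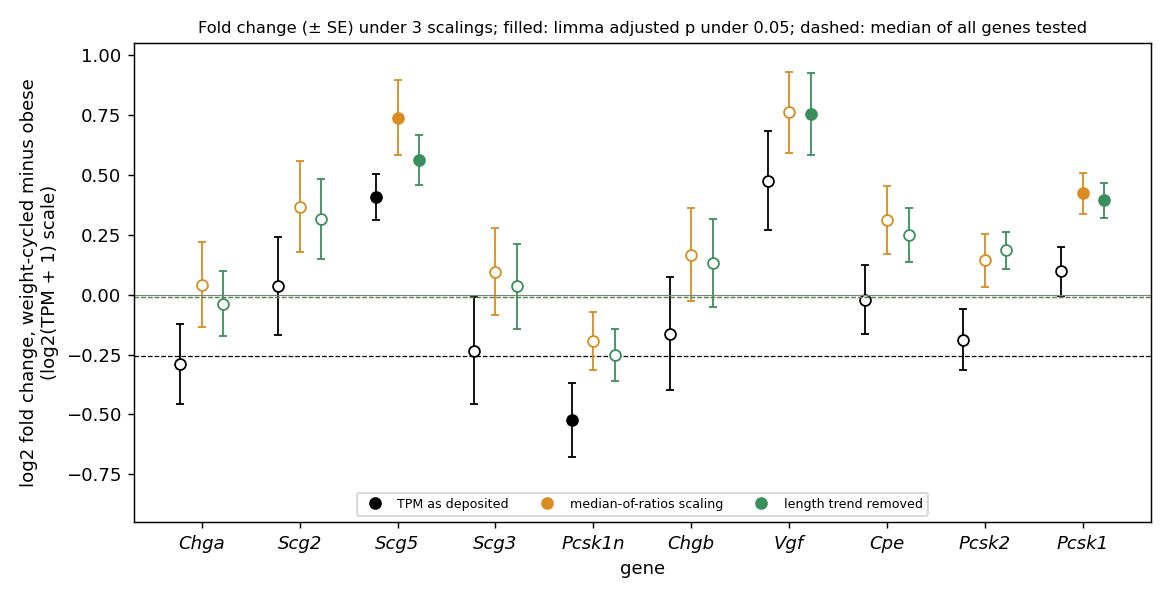
Log2 fold change ± SE, weight-cycled minus obese, of each gene under 3 scalings of the same 8 libraries: TPM as deposited (black), median-of-ratios scaling (orange) and TPM with the transcript-length trend of the library taken out (green). Filled points passed limma at an adjusted p of 0.05 and dashed lines mark the median of all genes tested, so that Pcsk1n, filled in black at -0.52 and open at -0.19 after scaling, and Pcsk1, open at 0.10 and filled at 0.42, change their call with the scaling while Scg5 is filled in all 3.

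Median-of-ratios scaling, which divides all genes of a library by the same factor, raised all 10 fold changes along with the general median. After it, 9 of the 10 fold changes were above 0 and 1 below, the median was 0.24 against -0.0090 over all genes, and 2 genes, Scg5 and Pcsk1, were called higher and 0 lower (background 1.24% higher, 0.566% lower and 1.81% in all). The groups then did not overlap for 3 genes, Scg5, Vgf and Pcsk1, all with weight-cycled above, against a background of 7.68% above and 14.6% in either direction. At an unadjusted p under 0.05 Vgf was also higher in that fit. After removal of the length trend 8 were above 0 and 2 below, the median was 0.22, and 3 were called higher, namely Scg5, Pcsk1 and Vgf, and 0 lower (background 1.78% higher, 1.53% lower and 3.31% in all). With quantile normalization 3 were above 0 and 7 below, the median was -0.18 and 0 of the 10 passed limma's test. Scg5 was then at 0.20 (limma adjusted p = 0.128) and Pcsk1n at -0.56 (0.0678), and 5 genes, these 2 with Vgf, Pcsk1 and Pcsk2, had an unadjusted p under 0.05. Chgb, Scg3, Pcsk2 and Cpe, below 0 on TPM, were above 0 in the scaled and in the length-corrected fit, and Chga in the scaled fit alone.

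**Figure D3:**
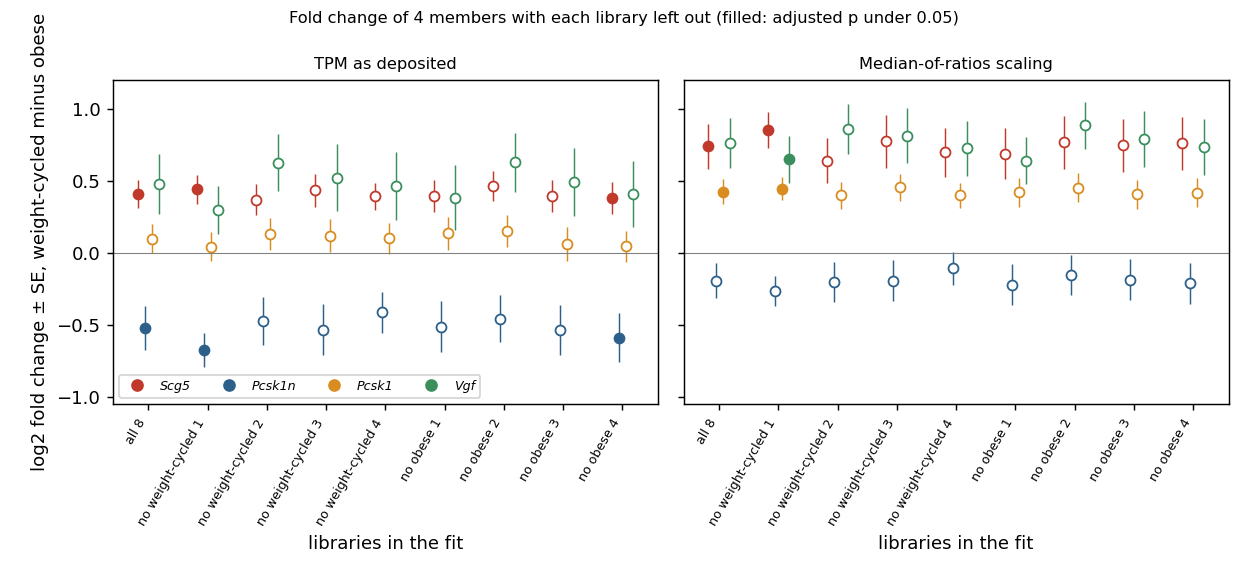
Log2 fold change ± SE, weight-cycled minus obese, of Scg5, Pcsk1n, Pcsk1 and Vgf with all 8 libraries and with each library left out, on TPM as deposited (left) and after median-of-ratios scaling (right); filled points passed limma at an adjusted p of 0.05. The directions hold in every fit, from -0.67 to -0.11 for Pcsk1n and from 0.37 to 0.85 for Scg5, while most points are open once a library is left out.

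A ratio between 2 genes in the same library does not depend on how that library is scaled. For 6 ratios between genes of related function, groups were compared by two-sided exact permutation over the 70 assignments of libraries to groups. The smallest p this allows is 0.0286, and adjusted over the 6 ratios the lowest values were 0.0571, so no ratio passed after adjustment. The ratios were chosen with earlier results of these data known, so these p-values do not test ratios fixed beforehand. Of all pairs of the 8107 tested genes above 0 in every library, 14.7% had ratios that did not overlap between the groups. The log2 ratio of the inhibitor gene Pcsk1n to its enzyme gene Pcsk1 was 1.88, 1.55, 1.68 and 1.26 in weight-cycled replicates 1 to 4, against 2.14, 2.25, 2.29 and 2.19 in obese replicates 1 to 4. Every weight-cycled library was below every obese one, and the means of 1.59 ± 0.259 in weight-cycled and 2.22 ± 0.0668 in obese libraries (SD, n = 4 each) differed by -0.63 (exact permutation p = 0.0286, adjusted p = 0.0571), a ratio in weight-cycled islets 0.648 times that in obese islets. The log2 ratio of the chaperone gene Scg5 to Pcsk2 was 0.50, 1.28, 0.78 and 1.04 in weight-cycled replicates 1 to 4, against 0.24, 0.24, 0.34 and 0.38 in obese replicates 1 to 4. Again the groups did not overlap, and the difference was 0.60 (exact permutation p = 0.0286, adjusted p = 0.0571), or 1.51-fold. Scg5 has the shortest transcript of the 10 and Pcsk2 the longest, and with each library's length trend removed that difference was 0.38. Under the same correction Pcsk1n to Pcsk1 differed by -0.65, Pcsk1 to Pcsk2 by 0.21 and Cpe to the sum of both convertases by 0.038.

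The log2 ratio of Pcsk1 to Pcsk2 was -2.77 ± 0.141 in weight-cycled and -3.06 ± 0.0622 in obese libraries, without overlap (difference 0.29, exact permutation p = 0.0286, adjusted p = 0.0571), and was higher in each weight-cycled library than in each obese one. The ratios chosen among the granin genes Chga, Chgb and Scg3 overlapped between the groups. Chga to Chgb differed by -0.13 (exact permutation p = 0.514, adjusted p = 0.617) and Scg3 to Chga by 0.055 (exact permutation p = 0.8, adjusted p = 0.8). Cpe to the sum of Pcsk1 and Pcsk2 differed by 0.13 (exact permutation p = 0.229, adjusted p = 0.343), at 1.12 ± 0.190 in weight-cycled and 0.99 ± 0.0200 in obese libraries. The spread of the weight-cycled libraries was wider than that of the obese libraries in all 6 ratios.

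**Figure D4:**
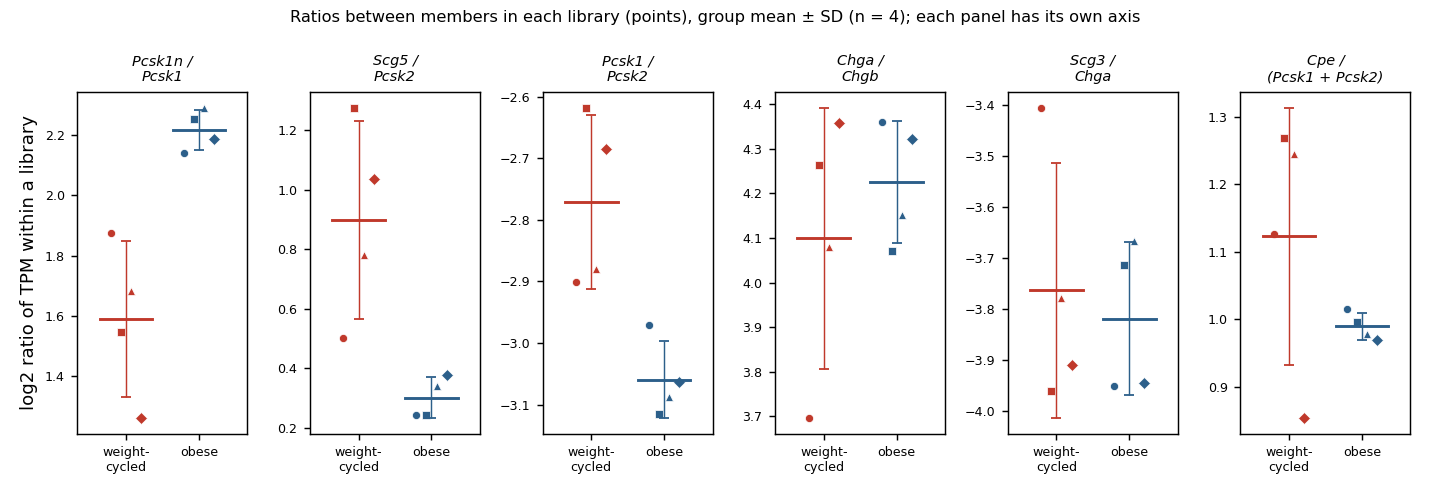
Log2 ratio of TPM within each library for 6 pairings, weight-cycled left and obese right, with points for libraries (shapes as replicate numbers 1 to 4: circle, square, triangle, diamond) and bars for the group mean ± SD (n = 4). The 4 weight-cycled points lie apart from the 4 obese points for Pcsk1n to Pcsk1 (below), Scg5 to Pcsk2 and Pcsk1 to Pcsk2 (above), and the points of the other 3 ratios overlap. The background is 14.7% of pairs of tested genes without overlap.

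Over all 45 pairs among the 10 genes, 17 ratios (37.8%) did not overlap between the groups, against 14.7% of all pairs of the 8107 tested genes that were above 0 in every library. These pairs share genes and are not independent, and the count was taken after values were seen. Pcsk1n took part in 7 of the 17, and in all 7 it was the gene that was lower relative to its partner in weight-cycled libraries. The widest was Vgf to Pcsk1n, with mean log2 ratios of -4.25 in weight-cycled libraries and -5.32 in obese libraries, a difference of 1.07. That of Scg5 to Pcsk1n, the 2 genes that limma called, was 2.08 in weight-cycled and 1.14 in obese libraries, a difference of 0.93. Chga was lower relative to each of Scg2, Scg5, Pcsk1 and Cpe, by -0.33, -0.70, -0.39 and -0.27 on the log2 scale.

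Transcript length was set beside the fold changes because of the length trend in the libraries. Over 5 equal bins of the genes tested, the shortest genes had a median fold change of -0.14 and the longest one of -0.36. The 10 genes had median transcript lengths of 1208 (Scg5) to 4723 bases (Pcsk2), and none fell in the shortest bin. Scg5, at 0.41, lay above the median of its bin (-0.16), Pcsk1n, at -0.52, below that of its bin (-0.30), and Pcsk2, at -0.19, above that of the longest genes (-0.36). Vgf, Pcsk1, Scg2 and Chgb share the bin of Pcsk1n and lay above its median.

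**Figure D5:**
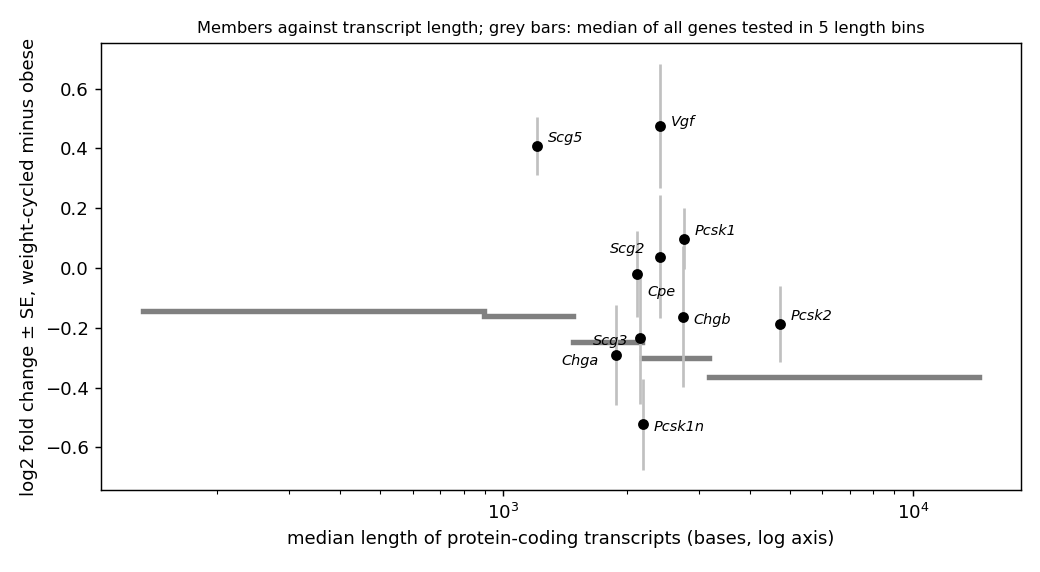
Log2 fold change ± SE, weight-cycled minus obese, of each of the 10 genes against the median length of its protein-coding transcripts (log axis), with grey bars for the median fold change of all genes tested in 5 equal bins of length. The bars step down from -0.14 to -0.36, Scg5 and Vgf lie well above them, and Pcsk1n is the one gene clearly below.

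Other genes of the pathway were taken from 5 lists with 47 genes, of which 32 were tested, with 1 called higher and 7 lower (background 1.21% and 23.9%). Of 7 other proprotein convertases 3 were tested, with 1 lower and 0 higher: Mbtps1, the Golgi site-1 protease, fell to 4.06 ± 1.26 TPM in weight-cycled islets, against 6.38 ± 0.676 TPM in obese islets (-0.57, limma adjusted p = 0.0352), and Furin was at -0.16 (0.403). Of 7 other carboxypeptidases 2 were tested (median -0.30): Cpd, a trans-Golgi relative of Cpe, fell to 1.47 ± 0.545 TPM, against 2.81 ± 0.426 TPM in obese islets (-0.64, limma adjusted p = 0.0322), and Cpn1 was at 0.033. Of 8 peptide-finishing genes 5 were tested (median -0.059): Rnpep, an aminopeptidase gene, fell (-0.35, limma adjusted p = 0.0470), and Pam, which amidates peptides, was at -0.059 (0.730), Ctsl at 0.094 and Ctsb at -0.17.

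Of 12 genes of the granule membrane and granule formation, 11 were tested (median -0.25) with 3 lower and 0 higher. Slc30a8, the granule zinc transporter gene, fell to 126 ± 23.1 TPM in weight-cycled islets, against 190.4 ± 14.6 TPM in obese islets (-0.61, limma adjusted p = 0.0303). Ptprn2, a transmembrane granule protein gene, changed by -0.77 (0.0367) and Vps41, needed for granule sorting, by -0.54 (0.0406), while Rab2a was at -0.26 (0.0756). Of 13 genes of prohormones that these enzymes could meet, 11 were tested (median -0.058). Cartpt, a peptide precursor gene, rose to 2.93 ± 0.633 TPM in weight-cycled islets, against 1.68 ± 0.326 TPM in obese islets (0.55, limma adjusted p = 0.0337), while Ucn3, the urocortin 3 gene, fell (-0.63, 0.0324). Iapp, the amylin gene, was at 0.31 (0.129) and Nucb2, the nesfatin precursor gene, at 0.46 (0.0712). After median-of-ratios scaling 2 of the 32, Cartpt (0.77, limma adjusted p = 0.0217) and Nucb2 (0.79, 0.0436), were called higher and 0 lower. None of the 7 lower calls thus held under that scaling, nor did any with the length trend removed. With quantile normalization 2 were still called lower, Slc30a8 (-0.59, limma adjusted p = 0.0384) and Cpd (-0.37, 0.0459).

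By Pearson correlation of log2(TPM + 1) over the 8 libraries, the genes most like Scg5 were Tmed3 (r = 0.989), Chil6 (0.984) and Slc35b1 (0.982), with 16 genes above 0.95. Those most like Pcsk1n were Cacnb3 (0.998), Eif3f (0.996) and Taf15 (0.996), with 723 genes above 0.95. The libraries fall into 2 groups and share scaling and length trends, so these values are a description of likeness over these libraries. Many more genes lay close to Pcsk1n than to Scg5.

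Islet endocrine cell types differ in which of these genes they use, so markers of each cell type were summed beside them. In bulk tissue fewer cells of a type and less RNA per cell cannot be told apart. Of 7 alpha-cell markers, all tested, 2 were higher and 1 lower, against a background of 1.21% of genes called higher and 23.9% lower. Their sum was 3128 to 8530 TPM in weight-cycled and 4575 to 12330 TPM in obese libraries. Delta-cell markers (3 of 5 tested, none called) summed to 2362 to 3861 TPM in weight-cycled and 2876 to 4581 TPM in obese libraries. Pancreatic polypeptide-cell markers (2 of 2 tested, none called) summed to 5601 to 11100 TPM in weight-cycled and 5008 to 12520 TPM in obese libraries. Of 9 beta-cell markers 5 were lower and 0 higher, against a background of 23.9% of genes called lower, which the lower calls in the other marker lists share. The marker calls are on TPM as deposited and were not counted after median-of-ratios scaling, where 46 of all genes tested were lower. Ucn3, among those 5, was then at -0.30 (limma adjusted p = 0.123). The beta-cell marker sum, made up mostly of Ins1 and Ins2, was 785400 to 813100 TPM in weight-cycled and 790100 to 803800 TPM in obese libraries. Acinar markers (13 of 16 tested, none called) summed to 9512 TPM in weight-cycled replicate 1, 4121 to 4820 TPM in the other weight-cycled libraries and 3215 to 5967 TPM in obese libraries. On TPM as deposited, weight-cycled replicate 1 was also the library in which Chgb, Scg2, Scg3, Vgf, Pcsk1 and Cpe were highest. After median-of-ratios scaling this held for Chgb, Scg2, Scg3 and Vgf. Pcsk1 was then highest in weight-cycled replicate 2 and Cpe in weight-cycled replicate 3. Endothelial markers (2 of 7 lower) summed to 28.3 to 58.7 TPM in weight-cycled and 51.2 to 84.0 TPM in obese libraries, and macrophage markers (3 of 5 tested lower) to 41.5 to 51.8 TPM in weight-cycled and 53.8 to 67.5 TPM in obese libraries. Duct markers (2 of 3 tested lower, Cftr at 0 in at least 1 library) and nerve and Schwann-cell markers (1 of 2 tested lower; Sox10, Cdh19 and Dbh at 0 in at least 1 library) summed to at most 72.0 and 13.1 TPM in any library, and stellate markers (1 of 6 tested, none called) to at most 15.4 TPM. The part of cell mixture in the results for the 10 genes was not tested.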

How the data were processed

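The authors deposited TPM per gene. The submitters' processing notes name Salmon 1.5.2 and build mm10; the sources used here give neither the annotation nor the summing of transcripts to genes. Salmon shares reads between transcripts by sequence and scales by length, and TPM of a gene falls when others rise. Each column summed to between 999930 and 999949. Of 35596 gene IDs, 35527 (99.8%) matched a symbol. Coordinates and transcript lengths were read from GENCODE M21 (GRCm38, the same assembly as mm10), and promoters from RefSeq on GRCm38.p6.

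Genes averaging at least 1 TPM were fitted with limma 3.58.1 in R 4.3.3 (trended variance, no covariate) on log2(TPM + 1), threshold 0.05. Ratios used two-sided exact permutation. The fit and the permutation test were checked on simulated data. The alternatives were pseudocounts of 0.1 and 5, no filter or a mean of at least 5 TPM, quantile and median-of-ratios scaling, totals without Ins1 and Ins2, a loess correction for transcript length (span 0.5), untrended and robust variance, the replicate number as a block, and each library left out, on TPM and after scaling. The length correction of the ratios and the count over all pairs were added after seeing the data. The 10 genes, the lists and the ratios were chosen with earlier results of these data known. All 10 genes were named, with, of each other list, up to 4 genes of smallest p and all called, and the 3 genes most like each called gene, predicted models left out. One gene that the rule takes is not reported here.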

Additional observations from a re-analysis of the deposited data

Results flagged for a closer look

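In 32 groups of 4 libraries (the TPM of the 10 genes and the 6 ratios, in each diet group) a library far from the other 3 was sought by Dixon's ratio; 2 groups passed, where chance gives 1.6. Weight-cycled replicate 1 stood out for Scg3, with 306.9 TPM, against 140.3 to 162.9 TPM in the other 3 (ratio 0.864). Obese replicate 2 stood out for Scg5, with 560.0 TPM, against 473 to 487 TPM in the other 3 (ratio 0.835), and still below the lowest weight-cycled library.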

How the results depend on the processing

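With no filter on low values, limma called 0 genes higher and 0 lower of 19482 tested (5686 at an unadjusted p under 0.05), and hence 0 of the 10 and 0 of the pathway genes. With a mean of at least 5 TPM it called 1001 lower, and 0 pathway genes higher, Cartpt being too low to be tested there. Median-of-ratios scaling gave 46 genes lower, 2 of the 10 higher and 0 lower, and 2 pathway genes higher and 0 lower. Quantile normalization gave 165 higher and 121 lower, 0 of the 10 higher and 0 lower, and 2 pathway genes lower. Without Ins1 and Ins2 in the total, 881 genes and 0 of the 10 were lower. With the length trend removed, 124 genes were lower, 3 of the 10 higher and 0 lower, and 2 pathway genes higher and 0 lower. Leaving out a library, on TPM or after scaling, gave 0 to 1620 genes higher and 0 to 4390 lower, 0 to 3 of the 10 higher and 0 to 5 lower, and 0 to 8 pathway genes higher and 0 to 13 lower.

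Same-numbered libraries deviated together with r of 0.21, -0.276, -0.0522 and 0.231, and not every library correlated best with its own number. These values show no clear pairing by number and cannot exclude one. With the number as a block limma called 149 genes higher and 2754 lower, the same 1 of the 10 higher and 1 lower, and 2 pathway genes higher; the blocked exact permutation test of the ratios cannot go below p = 0.125, and the 3 ratios at that value had an adjusted p of 0.25, so it says nothing about their stability.

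Signs turned, with no such value past the test, for Chga (0.042), Chgb (0.17), Scg3 (0.096), Pcsk2 (0.14) and Cpe (0.31) after median-of-ratios scaling, for Chgb (0.13), Scg3 (0.036), Pcsk2 (0.19) and Cpe (0.25) with the length trend removed, and for Scg2 (-0.22) with quantile normalization. With each library left out, on TPM or after scaling, fold changes were -0.42 to 0.10 for Chga, -0.43 to 0.30 for Chgb, -0.16 to 0.46 for Scg2, -0.48 to 0.20 for Scg3, -0.29 to 0.19 for Pcsk2 and -0.12 to 0.40 for Cpe. Differences in log2 ratios were -0.72 to -0.52 for Pcsk1n to Pcsk1, 0.47 to 0.73 for Scg5 to Pcsk2, 0.24 to 0.33 for Pcsk1 to Pcsk2, -0.21 to 0.0082 for Chga to Chgb, -0.064 to 0.12 for Scg3 to Chga and 0.085 to 0.22 for Cpe to both convertases. Without weight-cycled replicate 4, 4 of the 6 (Pcsk1n to Pcsk1, Scg5 to Pcsk2, Pcsk1 to Pcsk2 and Cpe to both convertases) had an exact permutation adjusted p of 0.0429. All 4 were then at the smallest p that fit allows, and the adjusted value follows from how many were there. The differences of Pcsk1n to Pcsk1 (-0.52), Scg5 to Pcsk2 (0.55) and Pcsk1 to Pcsk2 (0.26) were smaller in size than with every library, so it is no sign of a stronger result. The cause of these changes was not tested. TPM keep no depth, so the counting error of Vgf, at under 13 TPM, is unknown.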
